A study of Mus musculus with 15 samples.

Results

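The 8 genes described here make, package, take up or break down dopamine, noradrenaline and serotonin, and they were read as 8 of the 32285 genes in single-nucleus RNA-seq matrices of the mouse dorsal hippocampus. They were listed by name: Th (synthesis), Slc18a2 (packaging into vesicles), Slc6a3, Slc6a2, Slc22a3 and Slc29a4 (uptake across the cell membrane) and Maoa and Maob (breakdown). Nuclei came from micropunches of 15 adult female wild-type C57BL6/J mice in 3 groups. Virgin, age-matched nulliparous females formed the NP group (6 mice). Females that mated, gave birth and nursed a litter until weaning formed the control RE group (4 mice, labelled ControlPP), where RE stands for reproductive experience. The stress RE group (5 mice, labelled StressPP) had the same experience plus little nesting material and daily separation from the pups late in lactation. The labels give 3 batches: batches 2 and 3 held mice of all 3 groups, and batch 1 held 2 NP mice and 1 stress RE mouse but no control RE mouse. The bilateral punches of a mouse were pooled, so a library is 1 mouse. They took in some neighbouring cortex, thalamus, ventral hippocampus and ventricle.

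Dopamine, noradrenaline and serotonin reach the hippocampus along axons whose cell bodies lie in the midbrain and brainstem. Tyrosine hydroxylase (Th) carries out the rate-limiting step of catecholamine synthesis, and the vesicular monoamine transporter VMAT2 (Slc18a2) fills the synaptic vesicles. After release, the high-affinity transporters DAT (Slc6a3, dopamine) and NET (Slc6a2, noradrenaline and dopamine) return the transmitter to the axon, while OCT3 (Slc22a3) and PMAT (Slc29a4) are low-affinity, high-capacity carriers in other cells. Monoamine oxidases A and B, on the outer mitochondrial membrane, break the transmitter down inside the cell. Nuclei show which local cells transcribe these genes, and RNA in incoming axons is not captured.

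The matrices held 134019 barcodes, of which 123901 nuclei were kept after filters. Total counts of unique molecular identifiers (UMIs) ranged from 40602582 to 96211264 per library, with medians of 3993 to 8754 UMIs per barcode. Across libraries 2211 barcode sequences occurred in 2 or more of them, with 6 to 47 shared by any pair. Clustering without the 8 genes gave 23 classes named from their markers, where a name means that a cluster resembled that cell type, and 3 clusters left unnamed: Cluster 5 (6510 nuclei, led by Ebf3 and Ebf2), Cluster 18 (322 nuclei, led by Cpa6 and Ano2) and Cluster 20 (1896 nuclei, led by Vwc2l and Tshz2). Dentate granule, CA1, CA2 and CA3 neurons were found in every library, as were thalamic neurons and leptomeningeal cells from outside the hippocampus. A level is given as CPM, the share of a gene among the summed UMIs of a class in a mouse, scaled to 1e6 UMIs. It was averaged as mean ± SD, leaving out a mouse where it had fewer than 10 such nuclei. Reads within introns count toward these values, so levels are compared between classes for 1 gene. A CPM value applied to several genes is a limit for each and no ranking of their amounts.

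Th, Slc6a3 and Slc6a2, the genes that define catecholamine neurons, were close to absent from the local nuclei. Th gave 118 UMIs in all 15 libraries together, Slc6a2 104 and Slc6a3 35. The transcription factors Fev, Phox2a, Pitx3, En1 and Foxa1, which mark monoaminergic neurons, reached at most 0.160 CPM in any library. Th lies on chromosome 7 (GRCm38, chr7:142892752-142931128, minus strand). Of its UMIs, 37 were in habenular neurons, 25 in Cluster 5, 21 in interneurons and 19 in choroid plexus epithelium, and 13 of the 26 classes had no count.

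The highest mean Th level was in choroid plexus epithelium, at 4.79 ± 5.50 CPM (SD, n = 13 mice), followed by habenular neurons at 3.83 ± 3.94 CPM (SD, n = 12). A Th UMI was seen in 2.10% of choroid plexus nuclei (95% Wilson interval 1.31 to 3.33) and in 2.82% of habenular nuclei (2.03 to 3.89). In both classes the SD was as large as the mean. The 30480 oligodendrocytes held 1 Th UMI, at a median of 2516 UMIs against 9497.5 in habenular and 5893 in choroid plexus nuclei.

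Slc6a3 (chr13:73536747-73578672, plus strand) was highest in pericytes and smooth muscle at 1.45 CPM, which rested on 1 count in 1 mouse. Slc6a2 (chr8:92960079-93001667, plus strand) was highest in the subiculum at 0.432 CPM. Its order of classes rested on a few counts each, and 45 of its 104 UMIs were in dentate granule neurons, the most numerous class. At this depth no class could be picked out for either high-affinity transporter.

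**Figure D1:**
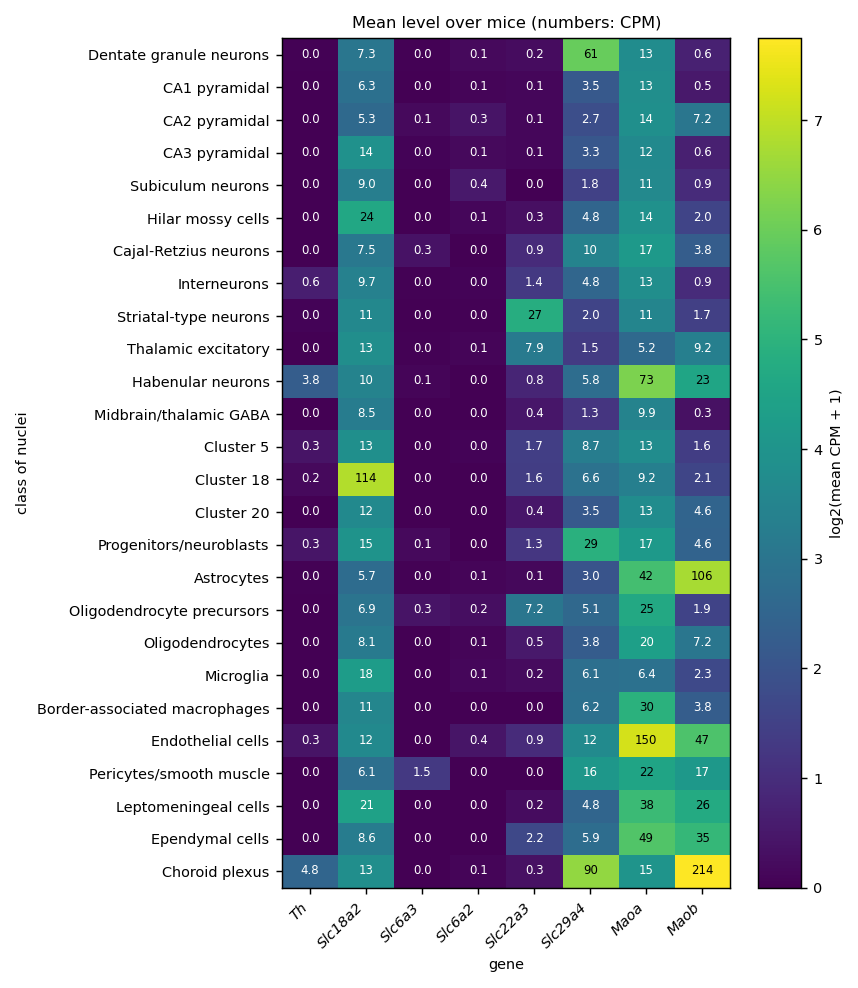
Mean level of the 8 genes (columns) in the 26 classes (rows), as CPM over mice, with colour on a log2(CPM + 1) scale. Maob was brightest in choroid plexus and astrocytes, Maoa in endothelial cells and habenular neurons, Slc29a4 in choroid plexus and dentate granule neurons, and Slc18a2 in Cluster 18, while Slc6a3 and Slc6a2 were dark throughout.

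Slc18a2 (chr19:59260896-59296012, plus strand) was high in a single small group of nuclei. Cluster 18, which no marker list named, held 114 ± 10.0 CPM (SD, n = 4 mice). In those mice the level was 108 CPM in NP mouse 27, 126 in NP mouse 35, 118 in mouse 75 and 104 in mouse 77, both stress RE. The 4 values lay close together, although the same mice differed in the other classes. A UMI of Slc18a2 was found in 55.0% of Cluster 18 nuclei (95% Wilson interval 49.5 to 60.3) at a median of 12538 UMIs, against 2.11% of oligodendrocytes (1.95 to 2.27) at a median of 2516 UMIs. The next class in order was hilar mossy cells at 24.2 CPM over 12 mice. In the 4 mice with both it held 39.3 CPM, lower than Cluster 18 in 4 of 4 by a ratio of 2.90, where the smallest p an exact two-sided permutation test can give is 0.125 (adjusted 0.227). At a finer clustering the nuclei with these leading genes held 136 ± 20.2 CPM (SD, n = 4).

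Outside Cluster 18 Slc18a2 was spread thinly over every class, at 5.26 CPM in CA2 neurons to 24.2 CPM in hilar mossy cells. These levels moved with the library. Summed over all nuclei of a mouse, called the whole punch below, Slc18a2 was lowest in NP mouse 31 (1.66 CPM) and the stress RE mouse 70 (2.23 CPM), and highest in control RE mouse 72 at 17.6 CPM. The means were 4.74 CPM in batch 1, 14.2 CPM in batch 2 and 8.52 CPM in batch 3. Dentate granule neurons, oligodendrocytes, astrocytes and microglia shared the pattern: in NP mouse 31 they held 1.05, 0.864, 0.727 and 3.30 CPM, and in control RE mouse 72 16.3, 16.4, 8.58 and 33.6 CPM.

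The same libraries differed in the summed level of 2955 genes annotated as antisense RNAs, which ran from 6991 to 20320 CPM, and Slc18a2 in the whole punch followed it. Pearson's r was 0.92 over 15 mice (permutation p 3e-05, adjusted over the 8 genes 0.00024) and Spearman's rho was 0.89 (permutation p 3e-05, adjusted 0.00024). Without the 2 mice farthest from the median, r was 0.88. Within batches r was 0.92 in batch 2 (n = 6, exact permutation p 0.00694) and 0.94 in batch 3 (n = 6, exact permutation p 0.00139), while batch 1 held too few mice. The other 7 genes gave r from -0.20 to 0.38, with adjusted permutation p of at least 0.575. Genes beyond these 8 were not set against the antisense sum, so the relation cannot be called particular to Slc18a2. This relation was looked for after the values had been seen. Slc18a2 overlaps the antisense gene Gm29261 on the minus strand, and the part of antisense reads in its levels was not tested. The antisense sum averaged 13080 ± 4407 CPM in NP (SD, n = 6), 15345 ± 4581 in control RE (n = 4) and 13359 ± 4358 in stress RE (n = 5), so the groups overlapped.

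**Figure D2:**
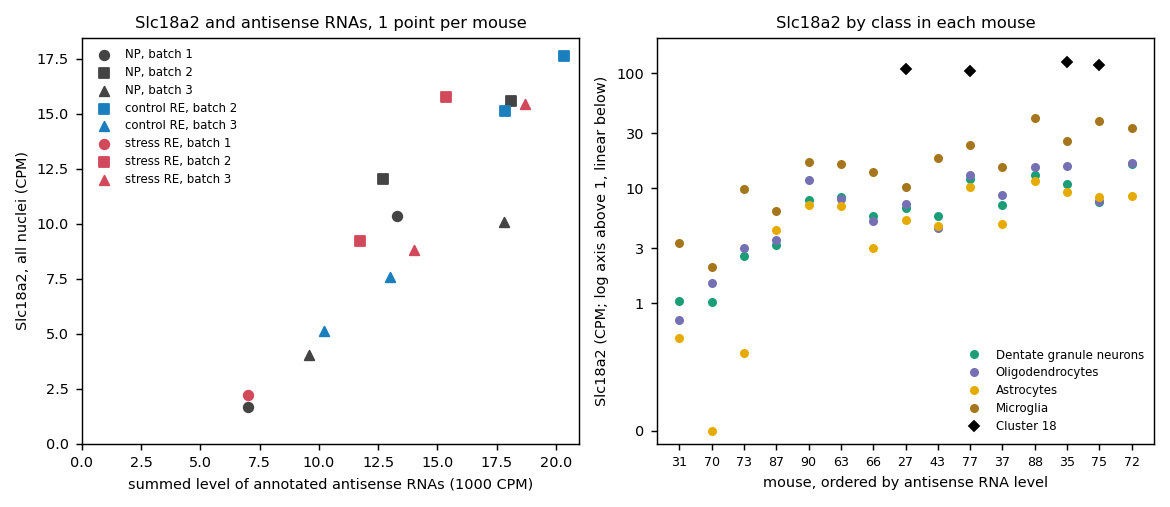
Left, Slc18a2 in all nuclei of a mouse (CPM) against the summed level of annotated antisense RNAs (in units of 1000 CPM), 1 point per mouse, with colour for group and shape for batch. Right, Slc18a2 by class (CPM, log axis above 1 and linear below) for mice in order of that antisense level. NP mouse 31 and stress RE mouse 70 lay lowest in dentate granule neurons, oligodendrocytes and microglia, and stress RE mouse 70 and NP mouse 73 in astrocytes. The 4 mice with enough Cluster 18 nuclei lay between 104 and 126 CPM in that cluster, and mice 31, 70 and 73 were not among them.

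PMAT (Slc29a4, chr5:142692512-142722490, plus strand) was highest in 2 places, the choroid plexus and the dentate gyrus. In choroid plexus epithelium, which secretes cerebrospinal fluid, its level was 89.7 ± 21.0 CPM (SD, n = 13), with a lowest value of 50.2, a median of 85.7 and a highest of 130.4 CPM. In dentate granule neurons it was 60.8 ± 6.61 CPM (SD, n = 15), from 51.8 through a median of 59.2 to 78.4 CPM. Choroid plexus lay above dentate granule neurons in 12 of 13 mice (exact permutation test, two-sided, adjusted p 0.0107). As in the other tests of neighbouring classes, the pair was picked by the order of means in these mice. Dentate granule neurons lay above neural progenitors or neuroblasts (28.9 CPM) in 15 of 15 mice (exact permutation adjusted p 0.00061). Progenitors in turn exceeded pericytes and smooth muscle (16.2 CPM) in 11 of 15 mice (exact permutation adjusted p 0.0342), and pericytes did not differ detectably from endothelial cells (12.0 CPM, exact permutation adjusted p 0.954).

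The other hippocampal principal neurons held little Slc29a4. The dentate level was 17.3-fold that of CA1 neurons (3.52 CPM) and 18.3-fold that of CA3 neurons (3.32 CPM), higher in 15 of 15 mice for each. Granule neurons made up 28.5% of the nuclei and held 84.8 ± 5.10% of all Slc29a4 UMIs (SD, n = 15 mice). A UMI was seen in 36.4% of granule neurons (95% Wilson interval 35.9 to 36.9, median 8018.5 UMIs) and 38.8% of choroid plexus nuclei (35.5 to 42.2, median 5893 UMIs), against 1.04% of oligodendrocytes (0.932 to 1.16, median 2516 UMIs).

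OCT3 (Slc22a3, chr17:12418960-12507704, minus strand) was low in the 7 hippocampal neuron classes and higher in striatal-type and thalamic neurons. Striatal-type projection neurons, which express Ppp1r1b and Pde10a, held 27.3 ± 6.27 CPM (SD, n = 8 mice). The values there were 27.96 and 25.3 CPM in NP mice 35 and 73, 35.8, 24.3 and 36.4 CPM in control RE mice 66, 72 and 87, and 17.3, 26.9 and 24.7 CPM in stress RE mice 43, 75 and 77. Each exceeded the same mouse's thalamic neurons (7.94 CPM in these mice), in 8 of 8 mice (exact permutation p 0.00781, the smallest this design allows, adjusted 0.026). The remaining 7 mice had under 10 nuclei of this class, whose share of a library ran from 0 to 7.59%.

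Thalamic excitatory neurons (7.89 ± 1.95 CPM, n = 15) and oligodendrocyte precursor cells (7.21 ± 2.65 CPM, n = 15) followed, without a detectable difference between them (exact permutation adjusted p 0.466). Precursors exceeded ependymal cells in 8 of 9 mice (exact permutation adjusted p 0.0335), and exceeded oligodendrocytes (0.456 CPM) in 15 of 15 mice. Ependymal cells held 3 Slc22a3 UMIs in 191 nuclei (2.18 ± 4.53 CPM, SD, n = 9). That is too few to set their level, so no order is drawn from the test against them. Within the thalamic class 1 cluster of 138 nuclei reached 31.3 ± 10.9 CPM (SD, n = 5). In the 7 hippocampal neuron classes Slc22a3 stayed between 0 and 1.42 CPM, the highest being interneurons. A UMI was found in 20.4% of striatal-type neurons (95% Wilson interval 18.6 to 22.2, median 9157 UMIs), 9.39% of thalamic neurons (8.73 to 10.1, median 14545 UMIs) and 0.131% of oligodendrocytes (0.0964 to 0.179, median 2516 UMIs). Slc22a3 overlaps Plg and an antisense gene on the plus strand.

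**Figure D3:**
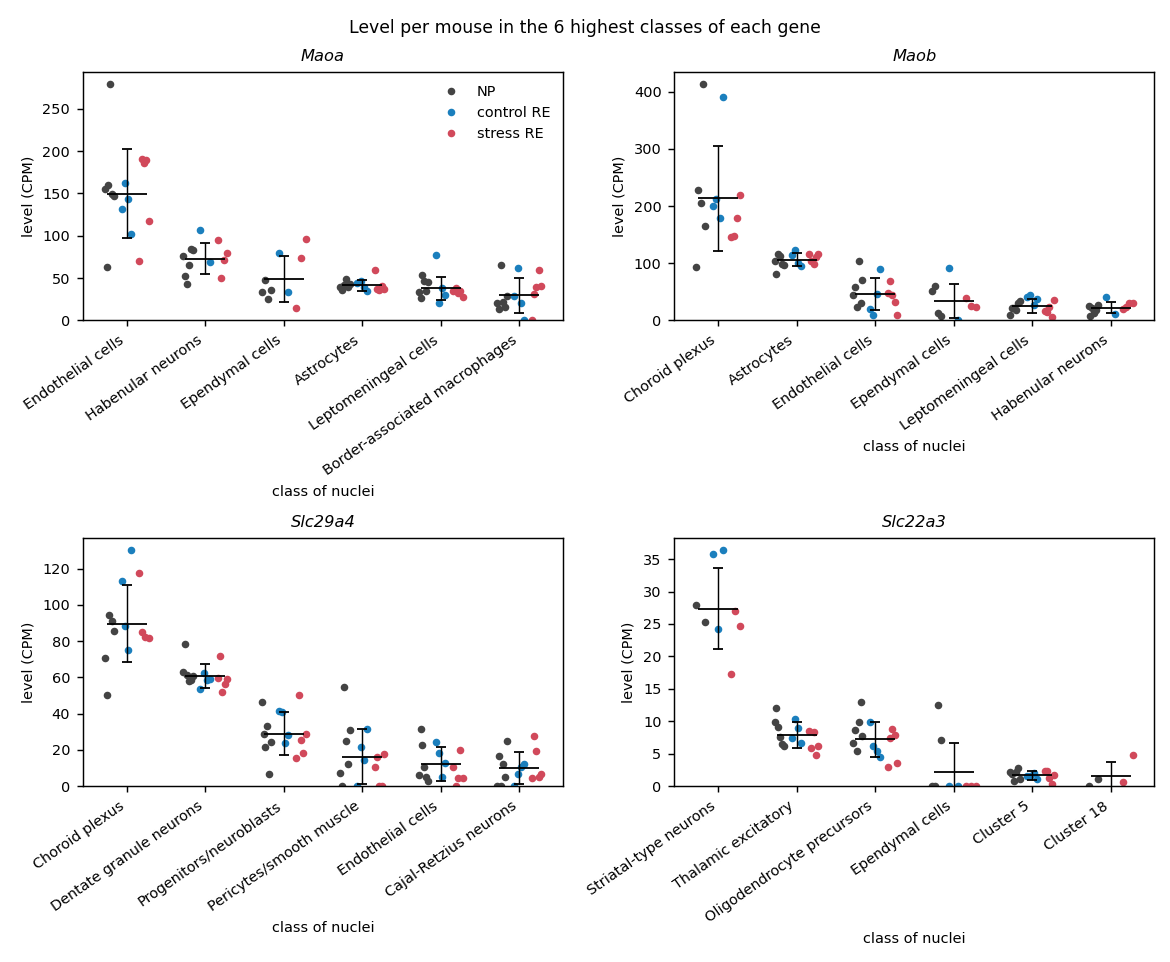
Level (CPM) of Maoa, Maob, Slc29a4 and Slc22a3 per mouse in the 6 highest classes of each gene, with points coloured by group and black bars for the mean and SD over mice. No group lay apart from another in any class shown, while the first class was above the second by 149.7 against 73.02 CPM for Maoa and 214 against 106 CPM for Maob.

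Maoa and Maob are neighbours on the X chromosome, and their 3' ends face each other across 21463 bases. Maoa (chrX:16619698-16687818) reads from the plus strand and Maob (chrX:16709282-16817366) from the minus strand, with 15 exons in the longest transcript of each. The class with the highest level differed between them, and over the 23 named classes Pearson's r between their log2 levels was 0.59, a description over classes that share libraries.

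Maob was a gene of choroid plexus and astrocytes. Choroid plexus epithelium held 214 ± 91.4 CPM (SD, n = 13), with a lowest mouse at 93.2, a median of 199 and a highest at 413 CPM. Astrocytes held 106 ± 11.2 CPM (SD, n = 15), from 80.7 through a median of 104 to 124 CPM. The choroid plexus varied widely between mice and astrocytes little, and choroid plexus was higher in 12 of 13 mice, with a 2.00-fold ratio of means (exact permutation adjusted p 0.00326). Astrocytes exceeded endothelial cells (46.7 ± 27.98 CPM) in 15 of 15 mice (exact permutation adjusted p 0.00061). Endothelial, ependymal (34.5 CPM) and leptomeningeal cells (25.5 CPM) could not be put in order (exact permutation adjusted p 0.439 and 0.973).

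Astrocytes were 7.56% of nuclei and carried 47.7% of the Maob UMIs of a mouse on average, thalamic excitatory neurons, 5.61% of nuclei, carried 12.9%, and the choroid plexus, 0.655% of nuclei, carried 12.7%. A Maob UMI was present in 51.8% of choroid plexus nuclei (95% Wilson interval 48.3 to 55.2) and 26.99% of astrocytes (26.1 to 27.9, median 3391 UMIs), against 1.76% of oligodendrocytes (1.62 to 1.92).

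Among hippocampal neurons CA2 pyramidal cells stood out for Maob. Their level was 7.20 ± 3.43 CPM (SD, n = 15), against 0.459 CPM in CA1, 0.604 CPM in CA3 and 0.633 CPM in dentate granule neurons, and it was the higher in 15 of 15 mice in each pairing. Thalamic excitatory neurons (9.21 CPM) and habenular neurons (22.5 CPM) were the other neuron classes above 5 CPM.

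Maoa was highest in endothelial cells, which line the brain's vessels, at 149.7 ± 52.8 CPM (SD, n = 15). The lowest mouse had 63.6 CPM, the median 148.7 and the highest 279 CPM. Habenular neurons were next at 73.02 ± 18.6 CPM (SD, n = 12), below endothelial cells in 11 of 12 mice (exact permutation adjusted p 0.00977). The habenula, which lies beside the dorsal hippocampus and was in the punch of 12 mice in sufficient number, thus held Maoa at 13.4 times the level of thalamic neurons in the same mice (5.46 CPM), higher in 12 of 12. Ependymal cells (48.9 CPM), astrocytes (41.8 ± 6.42 CPM) and leptomeningeal cells (38.2 CPM) followed, and no neighbouring pair from habenular neurons downward passed the test (exact permutation adjusted p 0.104 to 0.933).

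In the 7 hippocampal neuron classes Maoa was even, from 11.4 CPM in the subiculum to 14.0 CPM in mossy cells. Cajal-Retzius neurons, counted apart from these, held 17.1 ± 10.2 CPM (SD, n = 15). Microglia (6.38 CPM) and thalamic neurons (5.21 CPM) were the lowest classes. Shares of nuclei with a Maoa UMI were 41.9% for habenular neurons (95% Wilson interval 39.2 to 44.6, median 9497.5 UMIs), 30.96% for endothelial cells (28.4 to 33.6, median 2285 UMIs) and 5.10% for oligodendrocytes (4.86 to 5.35). Habenular nuclei were deeper than endothelial nuclei, so these shares do not follow the order of levels. Both oxidases were detected together in 7.09% of habenular nuclei, 5.43% of choroid plexus nuclei, 5.17% of endothelial cells and 4.23% of astrocytes.

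**Figure D4:**
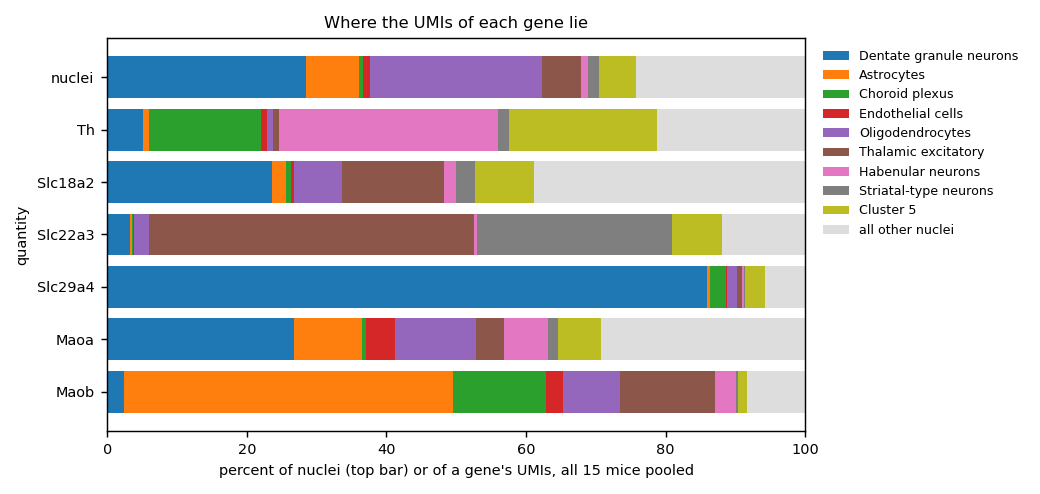
Percent of nuclei (top bar) and percent of each gene's UMIs (other bars) by class, all 15 mice pooled, with grey for all other nuclei. Dentate granule neurons filled most of the Slc29a4 bar, astrocytes, thalamic neurons and choroid plexus most of the Maob bar, and thalamic and striatal-type neurons most of the Slc22a3 bar.

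With 10 CPM as the level that counts, 7 of the 26 classes held Slc22a3, Slc29a4, Slc6a2 or Slc6a3 together with Maoa or Maob: dentate granule neurons, choroid plexus epithelium, endothelial cells, pericytes and smooth muscle, neural progenitors or neuroblasts, Cajal-Retzius neurons and striatal-type neurons. An oxidase reached this level in 22 classes, which include the 7 with a transporter. Slc29a4 was the transporter in each of them but striatal-type neurons, where it was Slc22a3. Of the 7, endothelial cells rested on 40 Slc29a4 counts (12.0 ± 9.41 CPM, lowest mouse 0), Cajal-Retzius neurons on 28 Slc29a4 counts (10.1 ± 8.81 CPM, median 6.57, lowest mouse 0) and pericytes and smooth muscle on 20 (16.2 ± 15.2 CPM, lowest mouse 0). Slc29a4 was seen in 2.61% of Cajal-Retzius nuclei (95% Wilson interval 1.73 to 3.92, median 2752 UMIs), 3.02% of pericytes (1.87 to 4.86, median 1923 UMIs) and 2.51% of endothelial cells (1.77 to 3.54), beside the 1.04% of oligodendrocytes. Free RNA in droplets can give UMIs in cells that do not express a gene. No correction for it was made, and its part in these low counts was not tested. The count turned on that level, and was 15 classes at 5 CPM and 1 class, choroid plexus, at 20 CPM. Transporters other than those listed, such as Slc22a2 in leptomeningeal cells, were left out of the count. Astrocytes, with both oxidases high, held 3.04 CPM of Slc29a4 and 0.121 CPM of Slc22a3.

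Of 23 further genes of monoamine synthesis, transport and breakdown, 22 were in the matrices. The serotonin transporter Slc6a4 (0.772 CPM in its highest class) and dopamine beta-hydroxylase Dbh (0.643 CPM) gave 61 and 208 UMIs in all. For each role, the genes with the highest CPM in a class are given here. Qdpr and Pts, which recycle and make the cofactor tetrahydrobiopterin, were highest in oligodendrocytes (231 ± 46.6 CPM, n = 15) and microglia (75.01 ± 21.2 CPM, n = 15). The cation transporter Slc22a2 reached 42.6 ± 13.0 CPM in leptomeningeal cells (n = 15), and the vesicular transporter Slc18a1 17.99 ± 11.5 CPM in choroid plexus (n = 13). Aldehyde dehydrogenase Aldh1a1 reached 656 ± 97.7 CPM in astrocytes (n = 15).

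The 3 groups were then compared gene by gene, to ask whether reproductive experience, with or without stress, was followed by other levels of these genes. No member passed in any class or whole punch where it could be tested. By edgeR's quasi-likelihood test with Benjamini-Hochberg adjustment over all genes of a fit, 132 tests of members gave 0 calls. They lay in 17 of the 22 classes fitted, since no member passed the filter on low counts in border-associated macrophages, Cajal-Retzius neurons, midbrain or thalamic GABAergic neurons, pericytes or subiculum neurons. The result stands against a background of 0.000164% called among all 609444 tests, where the single call was in the stress RE minus control RE comparison (0.000492% of its tests). The 18 member tests in the whole punch gave 0 calls, against 0.00157% of 63495 (0.00472% for control RE minus NP, 0% for the other comparisons). At an unadjusted p below 0.05 there was 1 member test in classes (0.758%, all genes 3.09%) and 2 in the whole punch (11.1%, all genes 2.95%). DESeq2 also gave 0 calls, with 1 and 2 tests at an unadjusted p below 0.05. Slc18a2 and Maoa could be tested in 13 classes each, Slc29a4 in 9, Maob in 8, Slc22a3 in 1, Th in the whole punch alone, and Slc6a2 and Slc6a3 nowhere. Striatal-type, habenular and ependymal cells and Cluster 18 had too few mice per group. Of the pathway genes, 360 class tests and 48 whole-punch tests gave 0 calls (12 and 0 at an unadjusted p below 0.05, and 10 and 1 by DESeq2). The median log2 fold change in the whole punch, control RE minus NP, was -0.19 for 6 members, 0.00 for 16 pathway genes and -0.02 for all genes. For stress RE minus NP the 3 medians were -0.08, -0.05 and -0.00, and for stress RE minus control RE -0.07, -0.04 and 0.01.

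Maob in the whole punch averaged 9.50 ± 1.53 CPM in NP mice (SD, n = 6; lowest 7.70, median 9.71, highest 11.0). Control RE mice had 7.69, 7.50, 8.94 and 5.50 CPM, and stress RE mice 7.27, 4.04, 8.90, 6.59 and 7.59 CPM, so over all batches the groups overlapped although both RE means were lower. Within each batch every NP mouse lay above every RE mouse, the closest being 7.70 and 7.59 CPM in batch 2. This was seen in the values and not tested as such, and Maob was not called with batch as a term. The stress RE minus NP difference was -0.40 on the log2 scale (SE 0.17, edgeR p 0.0342, adjusted 0.999). NP and stress RE means were 9.20 against 7.09 CPM in batch 2 and 10.9 against 8.08 in batch 3, with 2 mice a group in each. Batch 1 had a single stress RE mouse, mouse 70 at 4.04 CPM, the lowest of all 15, beside 2 NP mice at 8.35 CPM on average. In a whole punch, fewer cells of a type and less RNA per cell cannot be told apart. Astrocytes made up 8.00 ± 1.51% of an NP library, 7.59 ± 1.56% of a control RE and 6.73 ± 1.65% of a stress RE library, and choroid plexus 0.777%, 0.510% and 0.604%. Thalamic neurons, with 13.6% of all Maob UMIs, made up 6.31%, 5.24% and 5.14% in the same order, and habenular neurons, with 3.04%, made up 2.31%, 0.145% and 0.505%. With choroid plexus, thalamic, habenular and other outside classes left out together, Maob kept its sign against NP in both RE groups. Astrocytes stayed in that setting, and the part of each share in the difference was not tested. Within astrocytes Maob was as high in stress RE (109 ± 7.70 CPM, n = 5) and control RE (109 ± 12.9, n = 4) as in NP mice (102 ± 13.0, n = 6), with a log2 difference, stress RE minus NP, of 0.10 (SE 0.11, edgeR adjusted p 0.999).

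In choroid plexus epithelium Maob was 93.2, 228, 205, 413 and 164 CPM in NP mice, 199, 212, 179 and 391 CPM in control RE mice, and 146, 147, 179 and 219 CPM in stress RE mice. The stress RE range lay inside that of NP. The log2 difference, stress RE minus control RE, was -0.42 (SE 0.34, edgeR adjusted p 1.00). Leaving out 1 mouse at a time moved it between -0.55 and -0.18, and the value nearest to 0 was the one without control RE mouse 88. Slc29a4 in choroid plexus averaged 78.5 ± 18.3 CPM in NP (n = 5), 102 ± 24.8 in control RE (n = 4) and 91.5 ± 17.3 in stress RE (n = 4), and in dentate granule neurons 63.3 ± 7.56 (n = 6), 58.4 ± 3.58 (n = 4) and 59.8 ± 7.43 CPM (n = 5), again with overlapping ranges.

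The remaining whole-punch values overlapped between groups as well. Slc18a2 averaged 8.95 ± 5.18 CPM in NP mice (SD, n = 6), 11.4 ± 5.96 in control RE mice (n = 4) and 10.3 ± 5.58 in stress RE mice (n = 5), with SEs of 0.52 to 0.57 around log2 differences of -0.18 to 0.41, and the control RE minus NP and stress RE minus control RE differences turned sign with batch or antisense RNA level as a term. Slc29a4 averaged 23.1 ± 4.31, 23.8 ± 3.09 and 21.1 ± 5.86 CPM in the same order, with log2 differences of -0.15 to 0.12 (SEs 0.20 to 0.22). Maoa averaged 16.4 ± 2.79, 14.7 ± 1.52 and 14.5 ± 0.768 CPM, with log2 differences of -0.10 to -0.02 (SEs 0.11 to 0.13). Habenular neurons held 0 to 21.3% of a mouse's Maoa UMIs. They averaged 2.31% of an NP library, 0.145% of a control RE library and 0.505% of a stress RE library. With habenular, choroid plexus, ependymal, leptomeningeal, pericyte, thalamic and midbrain or thalamic GABAergic classes left out, the control RE minus NP difference of Maoa became 0.0091. The stress RE minus NP difference of Maoa kept its sign in that setting. Several classes were dropped at once, and the part of habenular neurons was not tested. Slc6a2 gave 39, 31 and 34 counts and Slc6a3 13, 12 and 10 counts, too few to be tested.

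Maoa in endothelial cells averaged 159 ± 69.1 CPM in NP (n = 6), 135 ± 25.2 in control RE (n = 4) and 150.6 ± 54.6 in stress RE (n = 5), with log2 differences of -0.23 to 0.14 and SEs of 0.29 to 0.33. In oligodendrocyte precursor cells NP mice ranged from 19.9 to 36.2 CPM with a median of 31.5, control RE mice had 23.1, 17.6, 19.6 and 19.9 CPM, and stress RE mice 26.2, 22.3, 22.1, 21.6 and 22.4 CPM. Control RE minus NP was -0.50 on the log2 scale (SE 0.20, edgeR p 0.0205, adjusted p 1.00), the one member test in a class with an unadjusted p below 0.05. Of the NP mice, 2 lay within the control RE range.

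Th in the whole punch gave 69 counts over 6 NP mice, 12 over 4 control RE mice and 37 over 5 stress RE mice. The NP values ran from 0.0263 to 0.352 CPM and the control RE values from 0.0144 to 0.0604 CPM, with an overlap at the lower end. Stress RE mice had 0.0347, 0.0755, 0.206, 0.251 and 0.0135 CPM. Control RE minus NP was -2.07 on the log2 scale (SE 0.71, edgeR p 0.0109, adjusted 0.928), with 0.252 against 0.0536 CPM in batch 2 and 0.168 against 0.0330 CPM in batch 3. Habenular neurons moved with it: they made up 2.31% of an NP library (0.178 to 4.79%), 0.145% of a control RE library (0 to 0.300%) and 0.505% of a stress RE library (0 to 1.13%), and held 31 of the 69, 1 of the 12 and 5 of the 37 Th counts. Their part in the difference was not tested. Slc22a3 in the whole punch averaged 2.16 CPM over NP, 1.47 over control RE and 2.08 over stress RE mice, and its highest mouse, stress RE mouse 75 at 4.79 CPM, also had the largest share of striatal-type neurons, 7.59%.

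**Figure D5:**
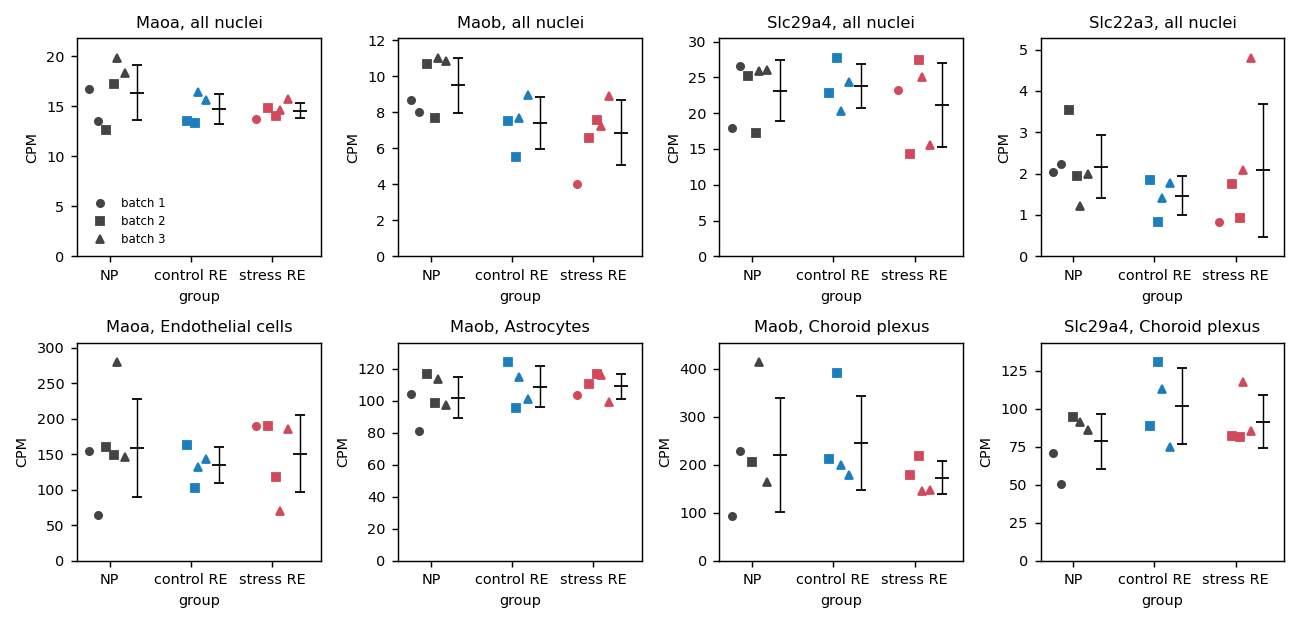
Level (CPM) of 4 genes in all nuclei (top) and in their high classes (bottom) by group, 1 point per mouse with shape for batch, and bars for the mean and SD. The 3 groups overlapped in every panel, and in the Maob panel for all nuclei the lowest point was stress RE mouse 70 at 4.04 CPM.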

How the data were processed

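The deposited values were raw UMI counts per gene and nucleus (10x 3' chemistry), filtered matrices that the authors made with Cell Ranger, named as version 7.1.0 in the submitters' processing notes and 7.0.0 in the matrix headers, on the mm10 reference. Gene positions came from GENCODE on GRCm38. No ambient RNA correction was applied to these files. Barcodes with at least 200 genes and at most 5% mitochondrial UMIs were kept and doublets removed at 0.8% per 1000 barcodes. Nuclei were clustered (scanpy 1.11.5, 2000 variable genes without the members and pathway genes, 30 components, Leiden resolution 1) and named from marker lists of 6 genes. The thresholds for a name were set after clusters had been seen. The study's authors removed clusters of choroid plexus, ependymal and leptomeningeal cells. They also removed clusters of neurons from outside the dorsal hippocampus, including ventral granule neurons. No such clusters were removed here. Counts were summed per mouse and class and tested with edgeR 4.0.16 (filterByExpr, TMM, quasi-likelihood, all 3 groups in 1 fit, classes with at least 3 mice per group of at least 10 nuclei each, adjusted p below 0.05), with DESeq2 1.42.0 as an alternative. On simulated counts for astrocytes, stress RE minus NP, 12784 genes, edgeR recovered 72 of 100 genes changed 2-fold and 98 of 100 changed 4-fold, with 5 false calls. The simulated counts held no batch effect. Smaller changes and classes with fewer nuclei were not simulated, so power for them is not known. Neighbouring classes, the 5 highest per gene, were compared within mice on log2(CPM + 1) by exact two-sided sign-flip permutation, with Benjamini-Hochberg adjustment over 20 tests. The classes were built from the same nuclei, and the pairs were set by the order of mean levels in the same mice. These p-values therefore do not test an order fixed beforehand. Wilson intervals at 95% cover counting error only. The mouse was the replicate, and mice carried no pairing across groups. Members, gene lists and tests were chosen with earlier results of these data known. Genes were named by a rule: the members in each class, group differences in the highest class and the whole punch, the 2 highest pathway genes per role (some genes are not reported here), and the 3 genes most like each member. Values for CA2 neurons, oligodendrocyte precursor cells, astrocytes and the antisense RNAs were added after they were seen.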

Additional observations from a re-analysis of the deposited data

Results flagged for a closer look

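Among 56 groups of 4 to 6 mice tested for a mouse far from the rest of its group, 7 were flagged by Dixon's criterion at the 95% level. Its rate of about 1 in 20 by chance assumes normal values. A group with a count in 1 mouse and 0 in the others is always flagged, so 7 of 56 cannot be set against that rate. Maob in choroid plexus epithelium was 391 CPM in control RE mouse 88 against 212 CPM in the nearest mouse of the group, from 39 counts in 16 nuclei. Slc29a4 in choroid plexus was 117 CPM in stress RE mouse 43, from 54 counts, against 85.1 CPM in the nearest. Maoa in astrocytes was 59.9 CPM in the same stress RE mouse 43, from 129 counts, against 40.5 CPM in the nearest. Slc29a4 in dentate granule neurons was 78.4 CPM in NP mouse 31, from 824 counts, against 62.7 CPM in the nearest. The remaining 3 rested on few counts: Slc6a3 in pericytes and smooth muscle at 21.8 CPM in control RE mouse 72 (1 count), Slc6a3 in the whole punch at 0.115 CPM in NP mouse 27 (5 counts), and Slc6a2 in the subiculum at 1.93 CPM in control RE mouse 66 (1 count).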

How the results depend on the processing

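No paired analysis was possible because the labels number no mouse across groups. No member was called under any setting, and its lowest adjusted p was 0.85 in the fits as reported and 0.184 over all settings (edgeR or DESeq2). Without a filter on low counts 756 genes were called in classes, none a member, and DESeq2 called 47 in classes and 21 in the whole punch. Of 27 differences named, 16 kept their sign in all settings. With batch as a term these log2 differences turned: Slc18a2 in the whole punch to -0.047 (control RE minus NP) and 0.087 (stress RE minus control RE), Maoa in the whole punch to 0.022 (stress RE minus control RE), and Maob in choroid plexus to -0.13 (control RE minus NP). A further setting left out choroid plexus, ependymal, leptomeningeal, pericyte, thalamic, habenular and midbrain or thalamic GABAergic classes, and kept striatal-type neurons. Under it Slc22a3 became 0.42 (stress RE minus NP) and Maoa 0.0091 (control RE minus NP) in the whole punch, where Th was not tested. Maob in the whole punch kept its sign against NP in both RE groups, as did Maoa for stress RE minus NP. Striatal-type neurons, the highest class for Slc22a3 (27.3 CPM), averaged 1.16% of an NP library and 2.39% of a stress RE library. Settings chosen after seeing the data were the antisense RNA level as a term, which turned Slc18a2 to -0.017 (control RE minus NP) and 0.22 (stress RE minus control RE), and leaving out NP mouse 31 and stress RE mouse 70, which turned Slc18a2 to 0.084 and Maob to 0.020 (both stress RE minus control RE) and Slc22a3 to 0.15 (stress RE minus NP). Causes were not tested.

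Leaving out each mouse in turn gave these ranges where a sign turned: Maoa in endothelial cells -0.38 to 0.0048 (control RE minus NP) and -0.24 to 0.15 (stress RE minus NP), Maoa in the whole punch -0.060 to 0.024 (stress RE minus control RE), Maob in choroid plexus -0.10 to 0.41 (control RE minus NP), Maob in the whole punch -0.23 to 0.013 (stress RE minus control RE), Slc18a2 -0.42 to 0.11 (stress RE minus control RE), Slc22a3 -0.54 to 0.15 (stress RE minus NP) and -0.049 to 0.63 (stress RE minus control RE), and Slc29a4 -0.19 to 0.080 (stress RE minus NP). Of the 20 neighbour tests 8 passed, 5 to 9 with a mouse left out, with 5 without stress RE mouse 75, stress RE mouse 77 or control RE mouse 87. The highest class of Maoa, Maob, Slc22a3, Slc29a4 and Slc18a2 was the same in 15 of 15 such repeats, of Th and Slc6a3 in 14 and of Slc6a2 in 12. Classes with uptake and an oxidase numbered 15 at 5 CPM and 1 at 20 CPM. Thinned to 1000 UMIs a nucleus, the shares with a UMI were 14.7% for Maob in choroid plexus, 9.26% for Maob in astrocytes, 15.3% for Maoa in endothelial cells, 5.63% for Slc29a4 in dentate granule neurons, 5.94% for Slc29a4 in choroid plexus, 2.64% for Slc22a3 in striatal-type neurons and 9.94% for Slc18a2 in Cluster 18.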

Other observations

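Several other genes of monoamine synthesis were highest outside neurons, while Dbh, Pnmt and Tph1 stayed at or below 0.917 CPM. Ddc, which makes dopamine and serotonin from their precursors, was highest in endothelial cells at 65.8 ± 27.1 CPM (SD, n = 15), followed by oligodendrocytes at 44.2 CPM. Gch1, the first enzyme of tetrahydrobiopterin synthesis, also had its highest level in endothelial cells, 53.9 ± 25.4 CPM (SD, n = 15), which were the highest class for Maoa too. Hdc, which makes histamine, was at 31.7 ± 29.1 CPM in ependymal cells (SD, n = 9), with choroid plexus next at 3.26 CPM. Tph2, the neuronal enzyme of serotonin synthesis, stayed at or below 6.70 CPM in all classes.

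Over the 23 named classes, the genes whose log2 levels were most like those of Maob were Acacb (Pearson r 0.90), the thyroid hormone transporter Slco1c1 (0.89) and Hspb8 (0.88). For Maoa they were Vim (0.81), Cav2 (0.78) and Wfdc1 (0.78), for Slc29a4 Dsp (0.88), Bag4 (0.83) and Stra6 (0.82), for Slc22a3 Gm38575 (0.75), Gpr149 (0.74) and Zar1l (0.74), and for Slc18a2 Col15a1 (0.78), Shq1 (0.75) and Col6a3 (0.70). The classes share libraries, so these values are descriptions. Dsp is among the markers that named the dentate granule class.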
